A study of Mus musculus with 9 samples.

Results

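The genes expressed by J774A.1, a mouse macrophage line, were described from the 3 RNA-seq libraries labelled with the safe sgRNA, a control guide RNA, out of 9 libraries in all. These 3 were chosen by their guide label alone, so no measured value entered the choice. Their cells carry the genotype label WT. The remaining 6 libraries come from cells given a guide against Slc12a9, 3 labelled sgRNA 11 and 3 labelled sgRNA 15; their genotype label reads SLC12A9 knockdown, while the text on the series' design speaks of knockout. Cells of every group were grown with 10% fetal bovine serum and L-glutamine and then spent 6 h in DMEM with neither, with penicillin and streptomycin, before RNA was taken. No library of cells kept in glutamine or serum was analysed here, so levels after starvation are described and the effect of the starvation was not measured. The labels do not say whether replicates were separate cultures, so any p-value reflects how much these libraries vary, and that variation may be technical.

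Macrophages are phagocytes that engulf particles, dying cells and lipoproteins and break them down in lysosomes, which a proton pump, the V-ATPase, keeps acidic. They read their surroundings through growth factor, Toll-like, Fc, complement and scavenger receptors, and their identity rests on the transcription factor PU.1, encoded by Spi1, and on signalling through the receptor for colony-stimulating factor 1, encoded by Csf1r. Many of these functions are encoded by families of related genes, the paralogs, and a cell type usually transcribes a few members of each.

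Levels of one gene are given in CPM, its counts scaled to a library total of 1000000 gene counts. CPM orders genes by the reads they take, which also depend on their length. Transcript levels of different genes are compared in TPM, for which counts were divided by the summed exon length of the gene and scaled to 1000000 per library. Values are the mean ± SD of the 3 safe libraries (n = 3) unless each library is given, a gene is called expressed at 1 CPM or more in each of the 3, and neighbours in an order are said to differ only where their 3 values did not overlap. A TPM is a share of its library's total, so 1 very high gene lowers the TPM of all others there. The short gene model Gm23935 took 72500, 35458 and 42946 TPM in safe replicates 1, 2 and 3. Actb stood at 5931, 5937 and 5977 CPM but at 6734, 7032 and 7029 TPM. The SD of a TPM therefore includes shifts shared by the genes of a library and is not the spread of that gene alone.

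All 5 macrophage markers given for this line were expressed. Lyz2, which encodes lysozyme M, an enzyme that cuts bacterial cell walls, stood at 4209, 3951 and 3908 TPM in safe replicates 1, 2 and 3. Cd68, a glycoprotein of lysosomal membranes, stood at 1074, 1156 and 1086 TPM. Csf1r stood at 896, 964 and 958 TPM and Spi1 at 558, 618 and 623 TPM. Adgre1, which encodes the surface antigen F4/80, was far lower at 28.3, 26.6 and 29.8 TPM. The 5 genes ranked in this order in every library with no overlap between neighbours, and Adgre1 supplied 0.422 ± 0.0277% of their summed TPM. The exons of Csf1r overlap those of another gene on the other strand over 15.1% of their length, and since the strand setting of the counting is not given in the sources used here its value is uncertain in that measure.

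The promoters of 5 of the genes the levels turn on are shown as the 250 bases before the gene start in RefSeq on GRCm38.p6, read 5′ to 3′ in the direction of the gene. The lysozyme pair lies on chromosome 10 and is shown because close paralogs differed widely in level, with Lyz1 at 0.094, 0.626 and 0.265 TPM against 4209, 3951 and 3908 TPM for Lyz2. Global alignment of their promoters matched 204 of 239 aligned bases (85.4%), and capitals mark the 46 bases of each that differ or have no partner. Lyz2 (chr10:117282273-117282522, minus strand) and Lyz1 (chr10:117292869-117293118, minus strand) follow.
Lyz2: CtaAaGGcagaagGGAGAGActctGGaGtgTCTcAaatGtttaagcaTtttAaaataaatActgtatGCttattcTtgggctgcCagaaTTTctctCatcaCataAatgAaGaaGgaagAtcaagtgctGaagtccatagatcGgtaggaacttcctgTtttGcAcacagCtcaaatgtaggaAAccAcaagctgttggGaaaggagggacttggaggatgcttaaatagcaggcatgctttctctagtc
Lyz1: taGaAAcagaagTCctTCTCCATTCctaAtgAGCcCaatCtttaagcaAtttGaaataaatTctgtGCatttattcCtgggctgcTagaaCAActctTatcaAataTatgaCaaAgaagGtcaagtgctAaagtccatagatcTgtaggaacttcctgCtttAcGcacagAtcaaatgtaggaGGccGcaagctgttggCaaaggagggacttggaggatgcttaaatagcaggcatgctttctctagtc
The promoter of Cd68 (chr11:69666171-69666420, minus strand) is shown for a macrophage marker, with capitals on GAGGAA, the core letters to which PU.1 is known to bind.
Cd68: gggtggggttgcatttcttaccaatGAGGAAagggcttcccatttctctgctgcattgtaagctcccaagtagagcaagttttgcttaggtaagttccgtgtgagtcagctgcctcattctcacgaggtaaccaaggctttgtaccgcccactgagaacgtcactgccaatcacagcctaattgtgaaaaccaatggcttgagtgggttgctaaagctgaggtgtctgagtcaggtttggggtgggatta
Lamp1 (chr8:13158911-13159160, plus strand), a main protein of the lysosomal membrane, and Ctsd (chr7:142387828-142388077, minus strand), the lysosomal protease cathepsin D, are shown with capitals on CACGTG, the letters to which factors of the MiT/TFE family, known regulators of lysosomal genes, bind.
Lamp1: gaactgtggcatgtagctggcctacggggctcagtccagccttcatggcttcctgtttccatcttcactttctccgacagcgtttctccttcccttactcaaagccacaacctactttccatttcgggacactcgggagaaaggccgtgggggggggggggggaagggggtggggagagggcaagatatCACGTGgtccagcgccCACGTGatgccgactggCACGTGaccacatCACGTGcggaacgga
Ctsd: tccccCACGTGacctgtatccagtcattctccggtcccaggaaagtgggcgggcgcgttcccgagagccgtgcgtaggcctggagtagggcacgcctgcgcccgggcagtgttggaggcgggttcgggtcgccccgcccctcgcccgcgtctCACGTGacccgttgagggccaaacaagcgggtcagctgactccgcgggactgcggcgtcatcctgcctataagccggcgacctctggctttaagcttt
Both motifs were searched on both strands, and a match of one can share at most 1 base with a match of the other. GAGGAA began 225 bases before the start of Cd68, and CACGTG began 61, 45, 28 and 15 bases before that of Lamp1 and 245 and 98 bases before that of Ctsd. CACGTG was found in 12 of 62 matched promoters of expressed genes from the lysosomal lists (19.4%), in 755 of 8493 promoters of all expressed genes (8.89%) and in 1634 of 27025 promoters of the whole table (6.05%). The SLC12 cotransporter, CLC and lysozyme lists, counted among the lysosomal lists elsewhere in this report, were left out of this promoter set. It was found in 0 of the 17 matched promoters of expressed macrophage markers and other mononuclear phagocyte genes. GAGGAA was found in 12 of those 17 promoters (70.6%), against 1915 of 8493 promoters of expressed genes (22.5%), 6252 of 27025 in the whole table (23.1%) and 15 of the 62 lysosomal ones (24.2%). A match is a run of letters and was not tested as a binding site.

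The safe libraries held 25613961, 20062072 and 18817850 gene counts, so 1 CPM equals 18.8 to 25.6 counts and a count of 0, which allows up to 3 counts, allows 0.117 to 0.159 CPM. Intervals of this kind cover counting error only. Between 6.32 and 6.48% of the reads in the tables were ambiguous between genes and 6.39 to 6.69% aligned to several places, and neither kind was counted for a gene. Genes with near copies or overlapping neighbours can therefore be undercounted. Rpl24, a ribosomal protein that every cell uses, was at 0.39, 0.0997 and 0.691 CPM, with 81.7% of the 50-base windows of its transcript also found in other genes. A listed gene is called uncertain where at least 25% of such windows are shared or at least 10% of its exon length overlaps another gene, which held for 100 of the 789 genes listed, and a level of 0 in such a gene is not read as absence. The measures need not find every gene whose reads were lost in counting, so a 0 elsewhere bounds the counted reads and not the transcripts. In the 6 libraries labelled with an Slc12a9 guide, Slc12a9 itself was not lower (65.7 ± 2.46 CPM with sgRNA 11 and 50.4 ± 1.71 CPM with sgRNA 15, against 47.6 ± 4.6 CPM with safe sgRNA).

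At least 1 count was found for 22971 of 55487 genes, and 11360 genes were expressed. These held 99.8% of the gene counts. Protein coding genes made up 10379 of them (91.4%), which is 47.2% of the 21974 protein coding genes in the tables, while 7598 protein coding genes had no count in any safe library. The other expressed genes included 540 processed pseudogenes, 114 lincRNAs, 78 processed transcripts and 73 antisense genes, and the processed pseudogenes together took 0.605% of counts. The median expressed gene stood at 33.9 CPM. Levels of at least 10 CPM were reached in all 3 libraries by 8445 genes, of at least 100 CPM by 2322 and of at least 1000 CPM by 83.

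The 10 genes with the highest mean CPM took 4.92 ± 0.31% of the counts and the 100 highest took 18.3 ± 0.239%. Per length the share was larger, since the 100 genes with the highest TPM held 30.8% of all TPM. This includes Gm23935, a short miRNA gene model of uncertain level at 72500, 35458 and 42946 TPM, and the share without it was not measured. It took 186 genes to reach 25% of all counts, 855 to reach 50% and 5013 to reach 90%. Of the 100 highest genes, 17 encode ribosomal proteins and 6 are encoded in the mitochondrial genome. Mitochondrially encoded genes took 1.71 ± 0.071% of counts.

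Eef1a1, the elongation factor that carries aminoacyl-tRNA to the ribosome, took the most reads on average, at 8465, 8503 and 8401 CPM. It was followed by CT010467.1, an rRNA gene model that stood at 10355, 4264 and 5679.8 CPM and is uncertain because it shares windows and overlaps with other models. Then came the mitochondrial cytochrome oxidase subunit mt-Co1 (6506 ± 209.6 CPM), beta-actin Actb (5949 ± 25.2 CPM), the glycolytic enzyme Pkm (3955 ± 23.3 CPM) and cytochrome b, mt-Cytb (3679 ± 173 CPM). The ferritin heavy chain Fth1 stood at 3675 ± 64.96 CPM, the chaperone Hsp90ab1 at 3634 ± 51.1 CPM, the glycolytic enzyme Gapdh at 3505 ± 57.00 CPM and the elongation factor Eef2 at 3070.2 ± 78.3 CPM. The poly(A) binding protein Pabpc1 (2972 ± 30.3 CPM), mt-Nd1 (2894 ± 178 CPM), the actin crosslinker Flna (2830.1 ± 34.1 CPM), the actin-sequestering thymosin Tmsb4x (2737 ± 50.4 CPM) and the lysosomal protease Ctsb (2669.6 ± 23.6 CPM) completed the 15. Near copies or overlapping genes make Eef1a1, mt-Co1, Pkm, Gapdh and Ctsb uncertain.

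**Figure D1:**
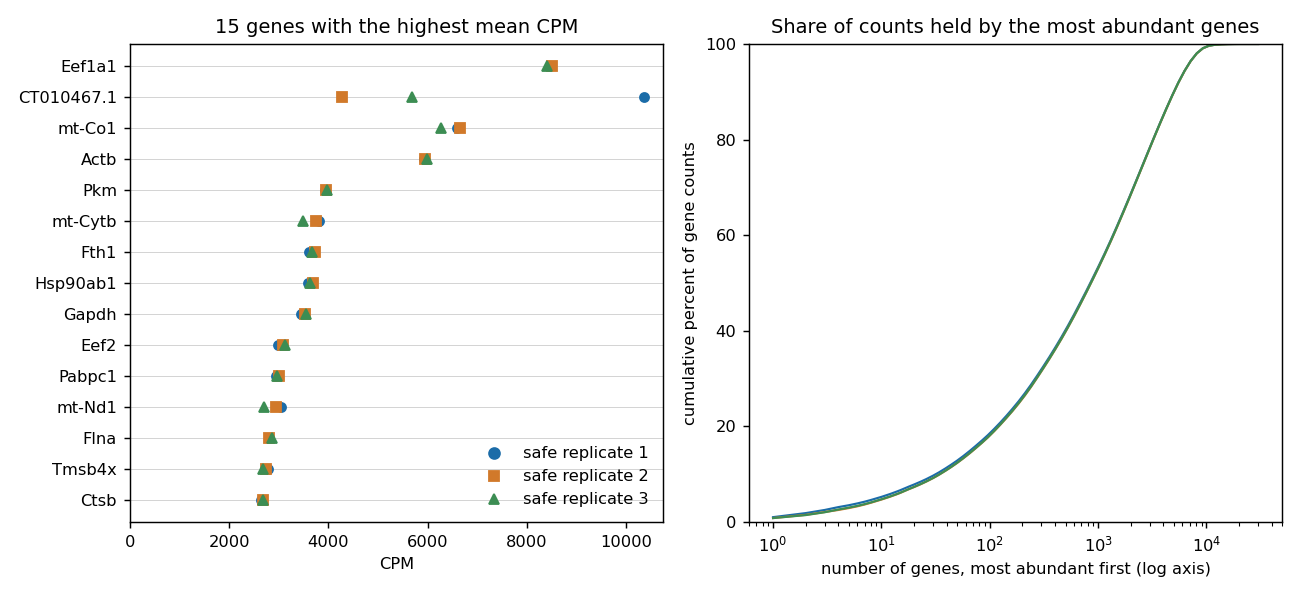
Left, CPM of the 15 genes with the highest mean CPM, with 1 mark for each safe library. Right, cumulative percent of gene counts against the number of genes taken in order of abundance within each library, on a log axis. The marks of CT010467.1 spread from 4264 to 10355 CPM while those of Eef1a1 lie between 8401 and 8503 CPM, and the 3 curves nearly coincide.

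Per length, the order of the top changed. Gm23935, a 57-base miRNA gene model whose sequence is shared in full with other models, led at 72500.4, 35458 and 42946 TPM, and its level is uncertain for that reason. It was followed by mt-Co1 (13144 ± 471 TPM), Eef1a1 (10589 ± 249 TPM), mt-Cytb (10034 ± 409.8 TPM), mt-Nd1 (9435 ± 486 TPM) and Rplp1, an acidic ribosomal protein (8689.9 ± 365 TPM). CT010467.1 (8505 ± 3799.7 TPM), Actb (6932 ± 171 TPM), Tmsb4x (6231 ± 124 TPM), Rpl8 (4727 ± 226 TPM), prothymosin Ptma (4476 ± 84.3 TPM) and Rpl36 (4128 ± 76.9 TPM) came next. Lyz2 (4023 ± 163 TPM), the interferon-induced membrane protein Ifitm3 (3822 ± 81.7 TPM) and Hsp90ab1 (3784 ± 136 TPM) closed the 15, and Lyz2 was the only one of the 5 given markers in this group. Near copies also make Rplp1, Ptma and Rpl36 uncertain.

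Other genes of mononuclear phagocytes were expressed in 18 of 20 cases. The complement C1q chains C1qb (1706 ± 79.1 TPM) and C1qa (1676 ± 58.2 TPM), the lipopolysaccharide co-receptor Cd14 (1581 ± 56.1 TPM) and the signalling adaptors Tyrobp (1509.7 ± 29.1 TPM) and Fcer1g (1324 ± 27.4 TPM) led. Ctss (890.1 ± 7.97 TPM), Laptm5 (743 ± 27.5 TPM) and the pore-forming protein Mpeg1 (679.5 ± 16.8 TPM) followed. The exceptions were Itgax, the CD11c integrin chain (0.508, 0.648 and 0.531 CPM), and Ms4a7 (6, 7 and 8 counts).

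Markers of other cell types were mostly at or near 0. None of 7 mast cell and basophil markers had a count, and none of 7 NK cell or 6 epithelial markers was expressed. Of the other lists, 2 of 10 T cell, 1 of 8 B cell, 2 of 10 neutrophil, 2 of 8 dendritic cell, 1 of 8 erythroid and megakaryocyte, 1 of 7 fibroblast and 2 of 6 endothelial markers were expressed. The defining T cell genes Cd3e, Cd3g and Trac and the B cell genes Ms4a1 and Pax5 were at 0, yet Cd5 stood at 9.06, 10.7 and 9.35 CPM, the kinase Lck at 4.45, 5.13 and 4.46 CPM and the immunoglobulin heavy chain Ighm at 18.7, 19.4 and 17.4 CPM. Pf4, a chemokine best known from platelets, stood at 328, 322 and 336 CPM while the platelet genes Gp9 and Itga2b were at 0 and 0.766 ± 0.192 CPM. S100a8 was at 2.77, 1.64 and 2.66 CPM and its partner S100a9 at 0. Summed over each list, the T cell markers spanned 13.5 to 15.95 CPM over the safe libraries and 17.4 to 19.5 over the guide libraries, the B cell markers 17.7 to 19.5 and 9.23 to 13.04, and the neutrophil markers 8.12 to 8.90 and 29.1 to 34.4. Erythroid and megakaryocyte markers spanned 323 to 337 and 255 to 403 CPM, dendritic cell markers 11.5 to 12.5 and 5.85 to 9.18, and endothelial markers 4.96 to 5.18 and 9.74 to 13.3. The part of other cells in these values was not tested.

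Programs of tissue-resident macrophages were present only in fragments. Monocyte genes were expressed in 2 of 6 cases, with fibronectin Fn1 at 7.2 ± 0.386 TPM and the chemokine receptor Ccr2 at 2.8 ± 0.337 TPM, and Ly6c2 and Plac8 had no count. Of the microglia genes, P2ry12 stood at 2.04 ± 0.354 TPM and Sall1 was at 0. Of the alveolar genes, the scavenger receptor Marco alone was expressed (4.07 ± 0.838 TPM), Pparg stood at 0.703, 0.648 and 0.585 CPM and Car4 was at 0. Of the Kupffer cell genes, Id3 was at 324 ± 14.1 TPM, while Clec4f and Vsig4 were at 0 and Timd4, Cd5l and Cd163 held at most 6, 3 and 3 counts in a library. Of the peritoneal genes, Icam2 stood at 22.2 ± 0.845 TPM and the factor Gata6 at 0. The haem-degrading enzyme Hmox1 (252 ± 6.55 TPM) and the iron exporter Slc40a1 (23.4 ± 0.831 TPM) represented the red pulp genes, whose factor Spic had 0, 0 and 1 counts and Vcam1 none. Of the osteoclast genes, the matrix protease Mmp9 (284 ± 19.1 TPM), the RANKL receptor Tnfrsf11a (58.9 ± 1.19 TPM), Nfatc1 (17.7 ± 0.934 TPM) and Dcstamp (6.01 ± 0.252 TPM) were expressed, and Ctsk held at most 3 counts in a library, Calcr at most 1 and Acp5 none.

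Among macrophage transcription factors, 18 of 20 were expressed. Spi1 (599 ± 36.1 TPM) was the highest and overlapped no other member. Cebpb (418 ± 19.8 TPM, uncertain), the inhibitor of differentiation Id2 (221 ± 5.71 TPM), Klf6 (148 ± 2.41 TPM), the granulocyte factor Cebpe (144 ± 9.33 TPM), Irf8 (117 ± 3.14 TPM) and Fli1 (85.9 ± 1.89 TPM) were lower. Spib, the close paralog of Spi1, had 0, 0 and 2 counts and Egr2 was at 0.429, 0.748 and 0.585 CPM.

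Irf5, a mediator of Toll-like receptor signalling, supplied 67.3 ± 0.822% of the summed TPM of 9 interferon regulatory factors (533 ± 25.8 TPM, uncertain from an overlap). Stat6, which carries the interleukin-4 signal, led the STAT factors at 140.4 ± 5.7 TPM against 29.4 ± 1.39 TPM for Stat3 and 28.8 ± 1.9 TPM for Stat5b, while Stat4 was at 0 but is uncertain. Among the MiT/TFE factors Tfe3 (31.3 ± 1.47 TPM) and Tfeb (27.4 ± 3.04 TPM) overlapped, Mitf was lower (14.7 ± 0.922 TPM), and Tfec held 5, 2 and 3 counts. With the length of the longest transcript, Tfeb was above Tfe3 (50.7 against 35.1 TPM). The LXR gene Nr1h2 (84.5 ± 4.75 TPM) exceeded Nr1h3 (2.79 ± 0.526 TPM), with Rxrb (76.2 ± 5.39 TPM) and Rxra (29.4 ± 1.97 TPM) as the expressed RXR partners and Rxrg at 0. Of the steroid and vitamin receptors the glucocorticoid receptor Nr3c1 led (27.2 ± 1.09 TPM), and Esr2, Pgr and Rarb were at 0, the last of them uncertain. Epas1, which encodes HIF-2 alpha (74.02 ± 4.64 TPM), exceeded Hif1a (48.7 ± 1.56 TPM), and Srebf2 (302 ± 11.6 TPM), the regulator of sterol synthesis, exceeded Srebf1 (153 ± 5.7 TPM).

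Receptors were examined in 242 genes, of which 152 were expressed and 27 had no count. Csf1r supplied 82.9 ± 0.37% of the summed TPM of the receptors for colony-stimulating factors. The chains of the GM-CSF receptor were lower, with Csf2ra at 136 ± 6.64 TPM, the shared beta chain Csf2rb at 36.6 ± 1.11 TPM and Csf2rb2 at 16.05 ± 1.64 TPM, and the G-CSF receptor Csf3r was the lowest at 5.28 ± 0.251 TPM. Both chains of the type I and type II interferon receptors were expressed, from Ifnar2 (74.6 ± 2.63 TPM), Ifngr2 (67.6 ± 2.33 TPM) and Ifnar1 (63.7 ± 0.901 TPM) to Ifngr1 (42.1 ± 1.98 TPM), whereas the lambda receptor chain Ifnlr1 held 0, 2 and 0 counts. By the longest transcript Ifnar1 came first (74.1 against 62.4 TPM for Ifnar2).

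Interleukin receptors were expressed in 13 of 20 cases. Il10ra (70.4 ± 4.4 TPM) led, followed by Il6ra (35.7 ± 0.6 TPM), Il10rb (34.9 ± 0.796 TPM, uncertain), Il6st (27.9 ± 0.619 TPM), Il13ra1 (18.3 ± 1.31 TPM) and Il4ra (13.8 ± 1.46 TPM), so chains that carry interleukin-10, interleukin-6 and interleukin-4 or 13 signals were all present. The signalling interleukin-1 receptor Il1r1 held 10, 2 and 4 counts and its decoy Il1r2 was at 0.664, 0.897 and 0.585 CPM. Of the TNF and TGF-beta receptors, Tnfrsf1a (182 ± 10.3 TPM), Tgfbr2 (134 ± 5.16 TPM) and Tnfrsf1b (111 ± 4.64 TPM) led and Tgfbr3 held 2, 2 and 1 counts.

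Of the chemokine receptors 8 of 23 were expressed. Cxcr4, the receptor for the chemokine that retains cells in bone marrow, stood at 41.4, 47.4 and 43.1 TPM and the fractalkine receptor Cx3cr1 at 43.5, 43.6 and 42.4 TPM. Their values overlapped, and without safe replicate 2 Cx3cr1 was the higher (43.0 against 42.2 TPM). Cxcr3 followed at 23.9 ± 1.3 TPM and Ccrl2 at 6.55 ± 0.773 TPM. Ccr1, the widely used inflammatory chemokine receptor, was at 0.156, 0.349 and 0.319 CPM, and Ccr4, Ccr7, Ccr8, Cxcr2 and Ackr3 had no count.

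Toll-like receptors were expressed in 10 of 12 cases. Tlr2, which senses bacterial lipopeptides, stood at 154, 166 and 167 TPM in the 3 libraries, above Tlr13 (131, 137 and 131 TPM), the endosomal sensor of bacterial rRNA. Tlr7 (118 ± 2.69 TPM) and Tlr8 (71.4 ± 0.874 TPM), endosomal RNA sensors, were next. The lipopolysaccharide receptor Tlr4 (45.6 ± 0.581 TPM) and the DNA sensor Tlr9 (43.9 ± 2.61 TPM) overlapped, and Tlr1 (17.6 ± 1.16 TPM) and Tlr3 (9.41 ± 0.648 TPM) were lower. Tlr11 and Tlr12, which sense profilin and are uncertain in neither measure, had 0 counts in the 3 libraries. All 8 partners were expressed, led by Cd14 and by Unc93b1 (412 ± 16.5 TPM), the chaperone of endosomal Toll-like receptors, while the adaptor Tirap (19.7 ± 1.25 TPM) and the Tlr4 co-receptor Ly96 (18.7 ± 0.414 TPM) overlapped at the low end.

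Lectin receptors and cytosolic sensors were nearly all on. Clec4d (325 ± 6.58 TPM) and its paralog Clec4e (173 ± 6.05 TPM), receptors for mycobacterial glycolipids, led the lectins, of which 11 of 12 were expressed, ahead of Clec10a (63.9 ± 1.21 TPM), Clec5a (58.3 ± 1.58 TPM) and Mgl2 (58.1 ± 3.44 TPM), and Clec1b held 1, 3 and 2 counts. Of the sensors and inflammasome genes 17 of 18 were expressed, with Casp1 (114 ± 6.6 TPM), the pore-forming Gsdmd (109 ± 4.29 TPM) and Nlrp3 (101.2 ± 0.963 TPM) at the top and Cgas (67.2 ± 2.75 TPM), Aim2 (63.7 ± 1.19 TPM) and Sting1 (61.1 ± 3.31 TPM) overlapping below them. Only Mefv, with 0, 0 and 4 counts, was not expressed in this list. By the longest transcript Gsdmd exceeded Casp1 (110 against 87.1 TPM).

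Of the Fc receptors, the signalling chain Fcer1g far exceeded the binding chains. Fcgr3 stood at 269, 297 and 291 TPM, above Fcgr1 (95.95, 104 and 108 TPM). Fcgr4 (92.9 ± 6.56 TPM), the neonatal receptor Fcgrt (84.3 ± 5.6 TPM) and the inhibitory Fcgr2b (76.2 ± 2.24 TPM) were close behind. Each of the mouse Fc gamma receptors in the list was thus expressed, and the IgE receptor Fcer2a held 0, 1 and 0 counts. The anaphylatoxin receptors C5ar1 (563 ± 20.9 TPM) and C3ar1 (440.1 ± 11.4 TPM) held nearly all of the complement receptor TPM, with 54.9 ± 0.731% and 42.9 ± 0.718%, and Vsig4 was at 0.

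Of 19 scavenger and efferocytosis receptors 9 were expressed, and 9 were below 1 CPM in all 3 safe libraries. Msr1, the class A scavenger receptor, stood at 392, 396 and 387 TPM and the lipoprotein and efferocytosis receptor Lrp1 at 296, 312 and 326 TPM. Colec12 (207 ± 5.67 TPM), Scarb1 (70.5 ± 4.11 TPM), Stab1 (58.7 ± 3.34 TPM), Scarb2 (43.4 ± 1.11 TPM) and the efferocytosis kinase Mertk (31.9 ± 1.06 TPM) followed. Against these, Marco was low (4.07 ± 0.838 TPM). The class B receptor Cd36 stood at 0.664, 0.498 and 0.903 CPM, the haemoglobin receptor Cd163 had 3, 1 and 0 counts and the Mertk relative Axl 2, 0 and 0, and Olr1 and Vldlr had none.

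Of the integrin beta chains 3 of 8 were expressed. Itgb1 (455, 484 and 473 TPM), Itgb2 (249, 263 and 271 TPM) and Itgb5 (73.4, 81.2 and 79.1 TPM) were expressed and did not overlap. Itgb7 was at 0.937, 0.648 and 1.06 CPM, Itgb3, the partner of Itgav in the vitronectin receptor, held 3, 3 and 4 counts, and Itgb8 had none. The alpha chains were led by the fibronectin receptor chain Itga5 (120.3 ± 6.37 TPM), Itgam, the CD11b chain of complement receptor 3 (96.6 ± 2.36 TPM, uncertain since 72.4% of its windows are shared), and Itgal (73.9 ± 5.29 TPM). Itga9 (56.1 ± 1.94 TPM), Itga6 (39.8 ± 1.3 TPM), Itga4 (33.03 ± 0.81 TPM) and Itgav (17.7 ± 1.01 TPM) were lower, while Itga2 had no count, Itga1 0, 1 and 0 and Itga3 0, 0 and 1.

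**Figure D2:**
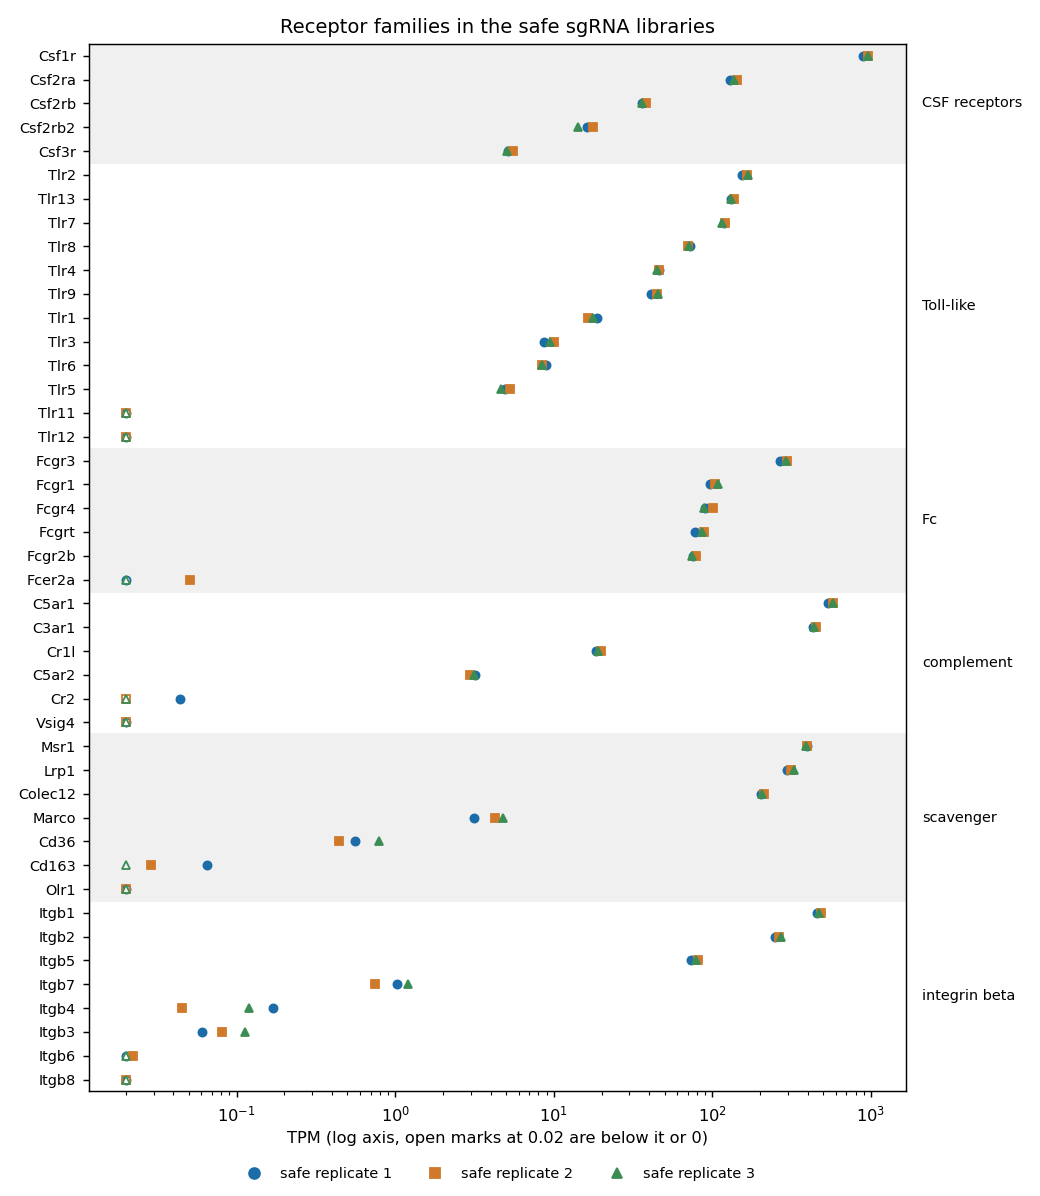
TPM of receptor genes on a log axis, with 1 mark per safe library and shading by family. Csf1r, C5ar1 and Itgb1 lie furthest right in their families, the Toll-like receptors fall off in steps below Tlr2, and Tlr11, Tlr12, Vsig4, Olr1 and Itgb8 have open marks for all 3 libraries.

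Of the purinergic receptors, which include ion channels and G protein-coupled receptors, 7 of 19 were expressed, as were 8 of 18 metabolite and peptide receptors. The UDP receptor P2ry6 supplied 71.4 ± 0.402% of the purinergic TPM (182 ± 8.28 TPM), ahead of the ATP-gated channel P2rx7 (28.8 ± 1.47 TPM), P2ry2 (18.9 ± 1.46 TPM) and P2rx4 (14.6 ± 1.11 TPM). The adenosine receptor Adora2a held 0, 1 and 0 counts. For lipid mediators, the sphingosine phosphate receptor S1pr1 (126 ± 2.7 TPM), the prostacyclin receptor Ptgir (91.01 ± 2.49 TPM), Lpar5 (66.97 ± 3.58 TPM), the platelet-activating factor receptor Ptafr (44.7 ± 0.566 TPM) and the prostaglandin E2 receptor Ptger4 (22.9 ± 0.934 TPM, uncertain) led the list, of which 10 of 21 were expressed. Of the metabolite receptors, Gpr84, for medium-chain fatty acids, led at 197 ± 8.2 TPM but is uncertain, since genes on the other strand overlap 39.5% of its exon length. Gpr183 (53.7 ± 1.13 TPM) and the proton sensor Gpr65 (40.98 ± 1.35 TPM, uncertain) followed. The formyl peptide receptors Fpr1 and Fpr2 were below 1 CPM (0.314 ± 0.0381 and 0.54 ± 0.262 CPM, the second uncertain), and the succinate receptor Sucnr1 was at 0. Paired receptors were led by the adaptor Tyrobp, the phagocytosis checkpoint Sirpa (987 ± 30.3 TPM) and the lipid sensor Trem2 (220.1 ± 10.9 TPM), with Trem1 at 30.8 ± 2.97 TPM and Siglech at 0.

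Lysosomal genes were expressed in 91 of 113 cases, and 5 had no count. Catalytic and structural V-ATPase subunits came from 1 paralog in most pairs. Atp6v0d1 stood at 179, 192 and 193 TPM and Atp6v0d2, the osteoclast form, held 1, 3 and 1 counts. Atp6v1b2 was at 282 ± 8.18 TPM and the kidney form Atp6v1b1 at 3, 1 and 3 counts. Atp6v1c1 (96.3 ± 4.02 TPM) and Atp6v1e1 (82.9 ± 6.04 TPM) had partners with a single count each over the 3 libraries, Atp6v1c2 (0, 0 and 1) and Atp6v1e2 (0, 0 and 1, uncertain). Atp6v1g1 (287 ± 8.91 TPM) supplied 99.4 ± 0.127% of its family, in which 2 of 3 members were expressed. The a subunits, which direct the pump to its membrane, were shared more evenly, and 3 of 4 were expressed. Tcirg1, the a3 form, stood at 171, 192 and 189 TPM, Atp6v0a1 at 75.02, 79.9 and 81.6 TPM and Atp6v0a2 at 26.6, 27.4 and 28.1 TPM with no overlap, and Atp6v0a4 held 3, 0 and 0 counts.

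Ion transporters of the lysosome and plasma membrane were spread over more members. Of the cation-chloride cotransporters 6 of 9 were expressed, and the potassium-chloride cotransporter Slc12a4 was highest at 43.4, 46.5 and 45.2 TPM. Slc12a9, the orphan member that the series targets, was the second at 26.6, 33.3 and 29.01 TPM. Slc12a5, known as a neuronal potassium-chloride cotransporter, stood at 13.7, 13.8 and 14.3 TPM. The sodium-potassium-chloride cotransporter Slc12a2 (12.99 ± 0.362 TPM) and Slc12a7 (12.9 ± 0.376 TPM) overlapped. Of the kidney transporters, Slc12a1 had no count and Slc12a3 held 0, 0 and 2 counts. Among the CLC genes the lysosomal exchanger Clcn7 led at 38.1 ± 0.918 TPM, above Clcn4 (22.4 ± 0.29 TPM, uncertain), and Clcn6 (12.6 ± 0.478 TPM) and Clcn5 (12.3 ± 0.0553 TPM) overlapped above Clcn3 (9.84 ± 0.649 TPM). The calcium channels Mcoln2 (28.2 ± 2.65 TPM) and Mcoln1 (18.8 ± 0.579 TPM) lay on both sides of the two-pore channel Tpcn2 (21.8 ± 0.735 TPM), Tpcn1 was lower (12.8 ± 0.144 TPM) and Mcoln3 held 2, 0 and 0 counts. The order of Mcoln2 and Mcoln1 turned with the length of the longest transcript (28.1 against 37.7 TPM).

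**Figure D3:**
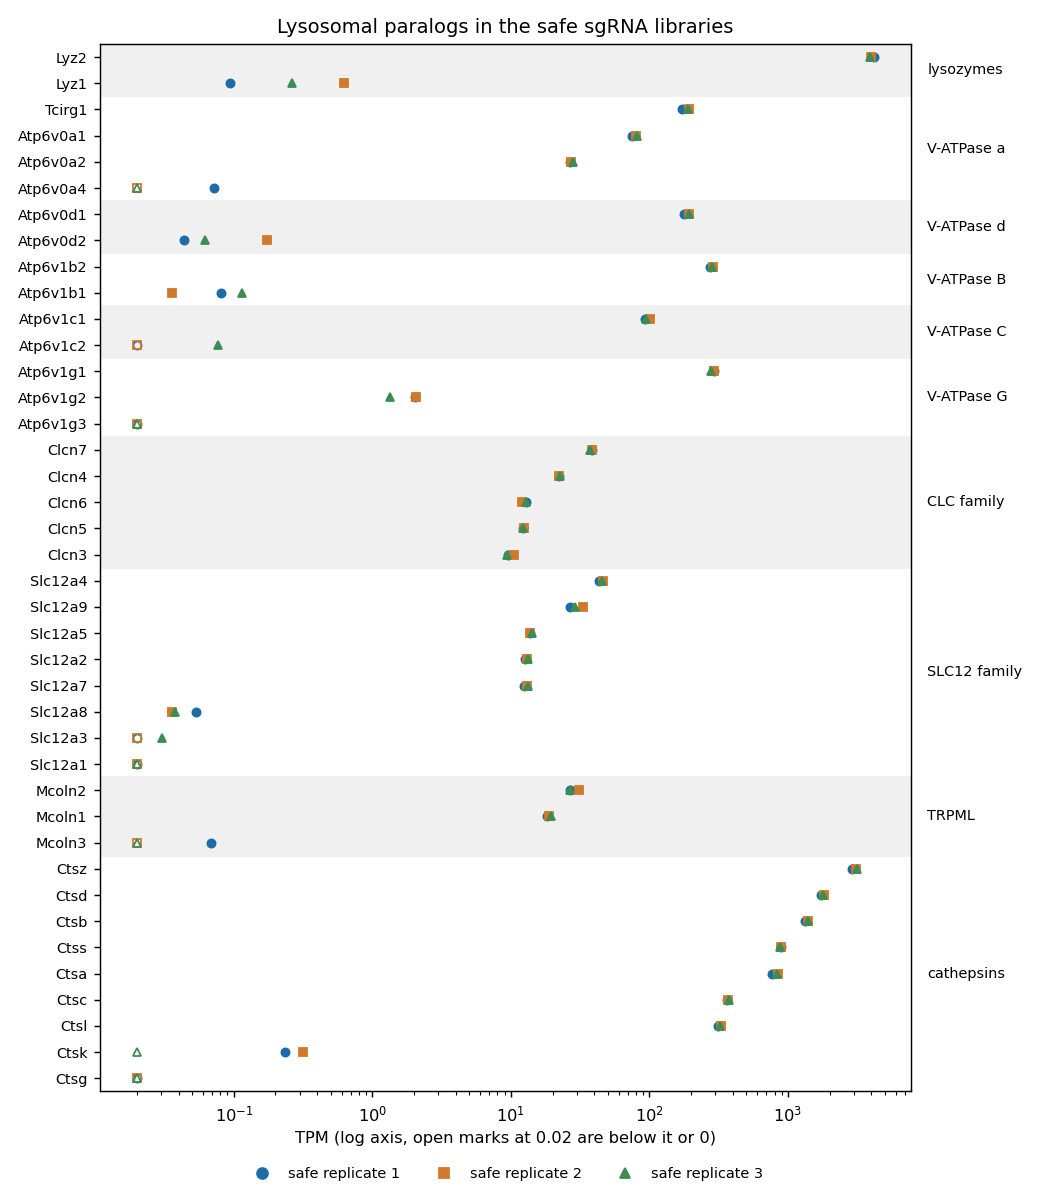
TPM of lysosomal and transporter paralogs on a log axis, with 1 mark per safe library and shading by family. For the V-ATPase d, B and C pairs the used paralog lies between 93.0 and 290.0 TPM and its partner below 0.2 TPM, while 5 SLC12 members and 5 CLC members lie together in the middle of the axis.

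Ctsz, a carboxypeptidase, stood at 2896, 3086 and 3130.1 TPM, the aspartic protease Ctsd at 1735, 1809 and 1781 TPM and the cysteine protease Ctsb at 1329, 1403 and 1401 TPM. Ctss (890.1 ± 7.97 TPM) was above Ctsa (815 ± 39.7 TPM) and legumain, Lgmn (755 ± 31.4 TPM), which overlapped, and Ctsc (368 ± 6.14 TPM) and Ctsl (322 ± 9.45 TPM) came next. Overlaps with other genes make Ctsd, Ctsb, Ctsa and Ctsl uncertain. The other end of the family was empty, since Ctsf and Ctsg had no count, Ctsk, the osteoclast cathepsin, had 3, 3 and 0 counts and Ctsw had 1, 0 and 1.

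All 18 glycosidases, 6 sulfatases and 12 lipid hydrolases and cofactors listed were expressed. Hexa (529 ± 12.03 TPM, uncertain), which removes sugars from gangliosides, and Gusb (481 ± 16.3 TPM), which cleaves glucuronic acid, led the glycosidases, in the reverse order with the length of the longest transcript (405 and 623 TPM). Man2b1 (218 ± 13.1 TPM), Neu1 (172 ± 8.94 TPM), and Fuca1 (158 ± 10.4 TPM) followed. Arsb (217 ± 7.7 TPM, uncertain) led the sulfatases. Psap, the precursor of the saposins that present lipids to hydrolases, supplied 52.7 ± 0.516% of its list at 1579 ± 49.02 TPM, before the acid lipase Lipa (324 ± 8.13 TPM), the nuclease Pld4 (285 ± 7.8 TPM) and the cholesterol carrier Npc2 (238 ± 5.31 TPM).

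Of the lysosomal membrane proteins 19 of 21 were expressed. Cd68 led, Laptm5 (743 ± 27.5 TPM) and Lamp1 (723 ± 8.51 TPM) overlapped, and the peptide transporter Slc15a3 (376 ± 14.7 TPM, uncertain), Laptm4a (303 ± 10.5 TPM) and Lamp2 (166 ± 1.81 TPM) were next. Lamp3 held 6, 3 and 1 counts. Cd63, a tetraspanin that most cells carry in their late endosomes, had 1, 0 and 0 counts, although its exons meet no overlap of 10% and only 9.1% of its windows are shared.

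Most glycolytic steps were led by 1 paralog. Pkm (2469 ± 66.7 TPM), Pgk1 (2208 ± 72.01 TPM), the aldolase Aldoa (1936 ± 96.1 TPM), lactate dehydrogenase Ldha (1672 ± 59.4 TPM), enolase Eno1 (718 ± 29.7 TPM) and the mutase Pgam1 (654 ± 19.7 TPM) were the highest members of their kind, and Pkm, Pgk1, Eno1 and Pgam1 are uncertain because of near copies. Ldha stood at 1603, 1708 and 1703 TPM against 2.19, 2.32 and 2.03 TPM for Ldhb (uncertain), and Aldoa supplied 95.01 ± 0.199% of its family. At the entry of the pathway the choice was broader. Slc2a6, a transporter of lysosomal membranes, stood at 149, 169 and 170.4 TPM, above the plasma membrane glucose transporters Slc2a1 (122, 130.5 and 127 TPM) and Slc2a3 (44.4, 45.7 and 44.8 TPM), with Slc2a2 and Slc2a5 at 0. Hk3 (75.7 ± 2.31 TPM), Hk1 (66.6 ± 1.87 TPM) and Hk2 (42.1 ± 1.62 TPM) were all expressed with no overlap, and Hk1 exceeded Hk3 by the longest transcript (102 against 66.3 TPM). Pfkl (82.8 ± 3.42 TPM) exceeded Pfkp (50.9 ± 1.52 TPM) and Pfkm (26.6 ± 1.8 TPM, uncertain). Slc16a1, which moves lactate and pyruvate, supplied 96.1 ± 0.689% of the monocarboxylate transporters (121 ± 5.4 TPM), and Slc16a3 was far lower (2.38 ± 0.298 TPM). Of the pyruvate dehydrogenase kinases, Pdk3 (60.3 ± 1.44 TPM) and Pdk1 (22.9 ± 0.766 TPM) led and Pdk4, a kinase known to rise on fasting in muscle and liver, was at 0. Every listed subunit of succinate dehydrogenase and every isocitrate and malate dehydrogenase was expressed, from Idh3a (139 ± 3.39 TPM) to Sdhd (547 ± 21.98 TPM), and Acod1, the itaconate-forming enzyme induced by inflammation, stood at 4.25 ± 0.324 TPM.

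Glud1, which converts glutamate to 2-oxoglutarate and ammonia, stood at 312, 332 and 338 TPM. Glutamine synthetase, Glul, stood at 64.3, 69.1 and 68.5 TPM, with no overlap between them. Among the transporters of glutamine and neutral amino acids, the shared heavy chain Slc3a2 (334 ± 13.2 TPM) led, followed by Slc7a8 (271 ± 9.35 TPM), Slc1a5 (225 ± 10.7 TPM), Slc7a5 (214 ± 12.2 TPM) and Slc38a2 (189.7 ± 4.76 TPM). Slc1a5 and Slc7a5 overlapped. Slc38a1 (64.7 ± 1.26 TPM), Slc7a6 (57.01 ± 2.01 TPM) and Slc7a7 (26.6 ± 0.769 TPM) were lower, and Slc38a3, Slc38a4 and Slc38a5 were at 0.

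Serine and arginine pathways were present with gaps. The mitochondrial serine hydroxymethyltransferase Shmt2 (479 ± 20.4 TPM), the serine synthesis enzyme Psat1 (313 ± 6.74 TPM) and asparagine synthetase Asns (107 ± 7.03 TPM) were high. Phgdh, the enzyme before Psat1 in serine synthesis, had 0 counts in the 3 libraries, but 63.1% of its windows occur in other gene models and it is uncertain. Ornithine decarboxylase Odc1 (159.7 ± 1.97 TPM), argininosuccinate synthase Ass1 (67.5 ± 1.71 TPM), the arginine transporter Slc7a1 (62.5 ± 1.76 TPM) and argininosuccinate lyase Asl (34.7 ± 1.92 TPM) were expressed, the first pair of them uncertain from near copies. The enzymes often used to sort macrophages by activation were not, since Arg1 held 3, 1 and 6 counts and the inducible nitric oxide synthase Nos2 3, 1 and 2. Cad, whose product begins the making of pyrimidines, stood at 110.1 ± 3.96 TPM, and the liver enzymes Cps1 and Otc were at 0. In the glutathione list all 9 genes were expressed, led by the peroxidases Gpx1 (1979.9 ± 63.2 TPM) and Gpx4 (349 ± 14.8 TPM, uncertain) and by Gsr (271 ± 13.8 TPM). The transaminases Got1 (202 ± 7.61 TPM) and Got2 (184 ± 6.35 TPM, uncertain) exceeded Gpt2 (13.2 ± 0.844 TPM) and Gpt (5.5 ± 0.184 TPM). By the longest transcript Got2 was above Got1 (269 against 191 TPM).

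**Figure D4:**
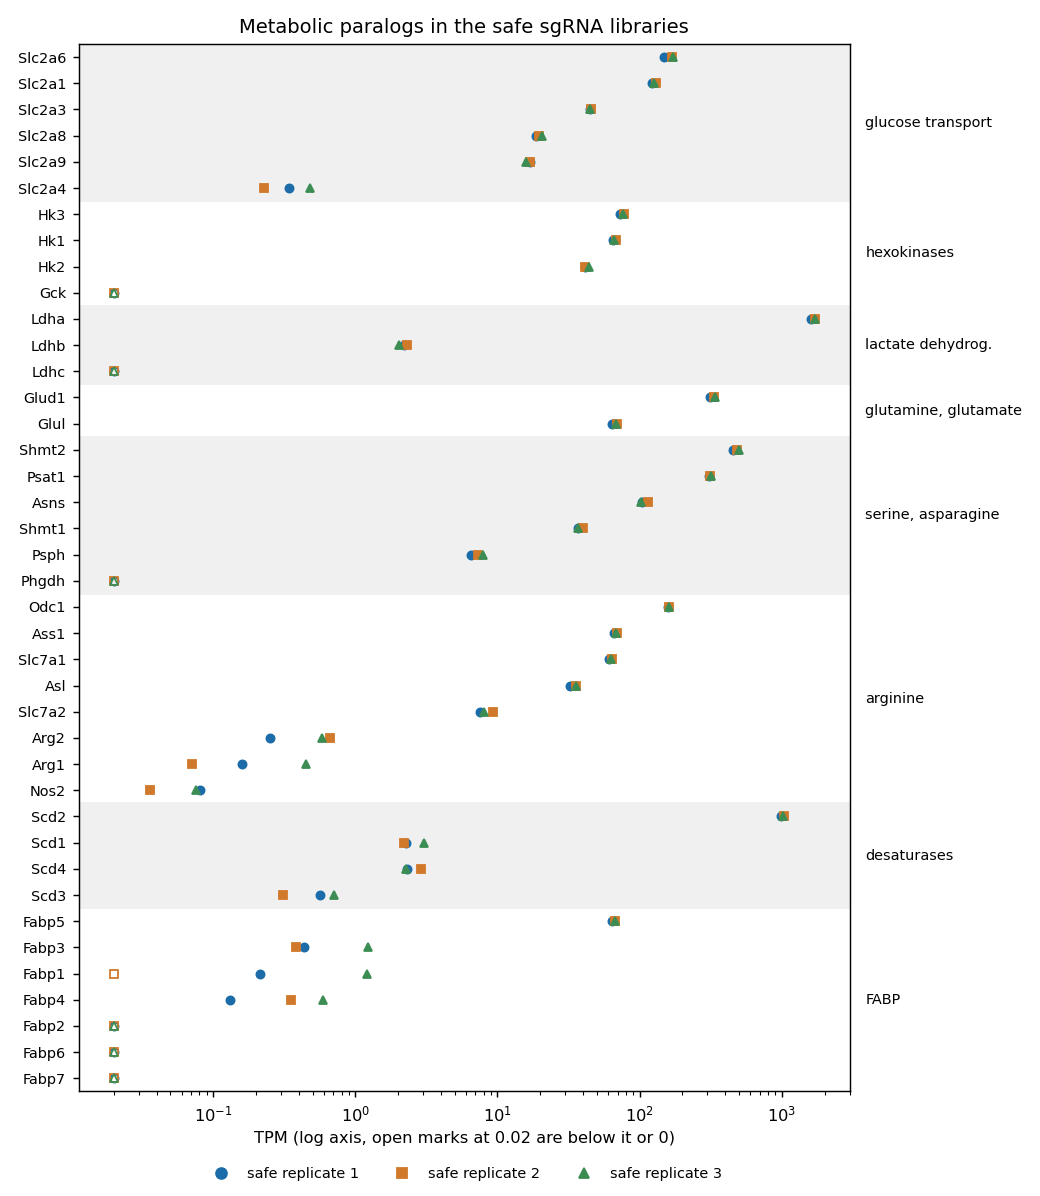
TPM of metabolic paralogs on a log axis, with 1 mark per safe library and shading by family. Ldha, Scd2 and Fabp5 lie far to the right of their paralogs, and the 3 expressed hexokinases lie close together.

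Lipid genes again showed strong choices between paralogs. The desaturase Scd2 stood at 982, 1031 and 1014 TPM and supplied 99.5 ± 0.0394% of its family, while Scd1, the main form of liver, stood at 2.28, 2.2 and 3.05 TPM and overlapped Scd4. Fabp5, the fatty acid binding protein known from skin and macrophages, supplied 97.8 ± 1.85% of its family (66.1 ± 1.57 TPM), and Fabp4, the adipocyte form, was at 0.195, 0.498 and 0.85 CPM. Acsl4 (139 ± 3.95 TPM) and Acsl5 (127 ± 5.7 TPM), which activate fatty acids, were both high and changed order with the longest transcript (109 and 111 TPM). Elovl5 (118 ± 2.73 TPM) and Elovl1 (112 ± 4.81 TPM) overlapped, in the reverse order by the longest transcript (115 and 129 TPM), and Elovl2, Elovl6 and Elovl7 were at 0. Soat1, which esterifies cholesterol, led the acyltransferases (100.7 ± 3.49 TPM), and the lipid droplet coats were Plin2 (193 ± 4.65 TPM) and Plin3 (78.6 ± 3.67 TPM). Lipoprotein lipase Lpl (229 ± 5.96 TPM), the cholesteryl ester hydrolase Nceh1 (155 ± 4.23 TPM) and the cholesterol exporters Abcg1 (80.9 ± 4.81 TPM) and Abca1 (39.6 ± 0.927 TPM) were expressed. Apoe, an apolipoprotein abundant in many tissue macrophages, was at only 11.1, 12.5 and 12.1 TPM, and Apoc1 was at 0. Of the iron genes, Fth1 (3308 ± 131 TPM), the light chain Ftl1 (1185 ± 18.1 TPM, uncertain), the phagosomal metal transporter Slc11a1 (316 ± 17.9 TPM) and Hmox1 (252 ± 6.55 TPM) led, above the transferrin receptor Tfrc (189 ± 2.95 TPM).

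Genes of the amino acid stress response were expressed in 21 of 24 cases. The regulator Atf4 led at 567, 602 and 600.3 TPM, followed by Shmt2, Cebpb, Slc3a2, Psat1, Atf3 (237 ± 8.91 TPM), Mthfd2 (191 ± 3.38 TPM) and Asns. Without a library from complete medium these levels cannot be called raised or not. Fgf21 had no count and Vegfa held 0, 2 and 7 counts.

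All 16 cycling genes were expressed, led by the replication clamp Pcna (760.3 ± 22.3 TPM, uncertain), Mcm3 (528 ± 20.97 TPM), Mcm5 (439 ± 19.6 TPM), Mcm6 (419.6 ± 17.97 TPM), cyclin D1, Ccnd1 (412 ± 10.8 TPM, uncertain), and Mki67 (292 ± 7.65 TPM). Cytokine genes were led by osteopontin, Spp1 (1853 ± 40.7 TPM, uncertain), and the chemokines Ccl9 (600.4 ± 9.55 TPM), Ccl4 (487 ± 24.04 TPM), Ccl3 (485 ± 11.4 TPM) and Ccl2 (408 ± 9.77 TPM), with Tgfb1 (228 ± 9.41 TPM), Tnf (111 ± 5.95 TPM) and Cxcl16 (89.8 ± 3.22 TPM, uncertain) below them. Il1b held 2, 1 and 5 counts, Il6 2, 0 and 0, and Il12a, Il12b and Cxcl1 none. In antigen presentation the class I genes B2m (1439 ± 15.99 TPM), H2-D1 (739 ± 18.7 TPM) and H2-K1 (484 ± 17.5 TPM) were high. Of class II, the invariant chain Cd74 was at 629.6, 674 and 674 TPM, while H2-Aa had no count, H2-Eb1 1, 0 and 0 and the class II regulator Ciita 1, 0 and 0. Secreted and surface proteases were led by Adam8 (588 ± 25.6 TPM), Mmp9 (284 ± 19.1 TPM) and urokinase, Plau (268 ± 6.9 TPM).

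The 3 safe libraries agreed closely for most genes. Among 7181 genes with a mean of at least 20 CPM, the highest library exceeded the lowest by a median factor of 1.06, and 95% of genes stayed within 1.16. Only 6 genes exceeded a factor of 1.5, and 5 of these were highest in safe replicate 1. CT010467.1 stood at 10355, 4264 and 5679.8 CPM (2.43-fold), the miRNA models Mir6236 at 111, 47.95 and 63.6 CPM (2.32-fold) and Gm23935 at 1359, 637 and 777 CPM (2.13-fold), and Lars2, a mitochondrial leucyl-tRNA synthetase, at 478, 229.8 and 259.9 CPM (2.08-fold). The miRNA model Gm24270 (1.61-fold), Gm10925, a pseudogene whose windows are all shared with mt-Atp6 and another model (1.61-fold, highest in safe replicate 2), the nuclear RNA Malat1 (1.46-fold) and the uridylyltransferase Tut4 (1.4-fold) completed the 8 widest. In safe replicate 1 the first 4 took 1.23% of the counts, against 0.518 and 0.678% in the other two. A chi-square over genes gave 6.83, 5.16 and 2.16 per degree of freedom for the 3 pairs of safe libraries, and 2.02, 2.58 and 1.82 without those 4 genes. No pair thus agreed within sampling noise, and all 3 were kept as libraries. Spread of this kind may be technical, so it cannot show whether they were separate cultures.

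To place the safe libraries in the series, the mean of the 2 groups labelled with an Slc12a9 guide was set against them in 1 contrast of edgeR's quasi-likelihood test over all 9 libraries, with Benjamini-Hochberg adjustment over 13453 genes. Safe and guide libraries differed widely, since 9147 genes (68%) passed an adjusted p of 0.05, 34.7% higher and 33.3% lower in the guide libraries, and 7.2% differed by at least 2-fold. The balance of directions depended on the scaling, since 51.1% of calls were higher in the guide libraries here, 44.1% with trends in GC content and gene length removed and 55.4% with library size only. The median absolute log2 difference was 0.30. In the fit limited to genes with a mean of at least 5 CPM, 7714 of 9781 tested genes were called. With this background, a call alone says little, and sizes are given beside it. Of the 789 listed genes 547 passed the filter on low counts and 453 were called, 289 higher and 164 lower in the guide libraries (median log2 0.17, against 0.01 over all genes tested).

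Among the markers, Lyz2 was lower in the safe libraries (1821, 1639 and 1633 CPM) than in those of sgRNA 11 (4527, 4506 and 4583 CPM) and sgRNA 15 (3641, 3575 and 3579.5 CPM), with no overlap (log2 1.22, SE 0.03, adjusted p = 7.28e-13). Adgre1 was also lower in the safe libraries (29.3 ± 1.9 CPM against 50.5 ± 1.34 and 47.5 ± 3.23 CPM, log2 0.70, SE 0.05, adjusted p = 4.42e-23). For Csf1r the safe libraries (1736 ± 31.3 CPM) lay near those of sgRNA 15 (1760.4 ± 9.29 CPM) and below those of sgRNA 11 (2643 ± 13.2 CPM), and for Cd68 they lay between those of sgRNA 11 (404 ± 7.82 CPM) and sgRNA 15 (598 ± 13.2 CPM), so that for these genes the mean of both guides stands for unlike groups. Spi1 did not pass (log2 0.00, SE 0.02, adjusted p = 0.873).

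Of the 8 listed genes that were higher by the largest factor in the guide libraries, 6 belong to the amino acid stress list. The lists were chosen with earlier results of these data known, so this count reflects the choice of lists as well as the data. Trib3, a pseudokinase that restrains growth signalling, had safe values of 33.03, 32.4 and 34.9 CPM, against 267, 266 and 270.2 CPM with sgRNA 11 and 249, 256 and 269 CPM with sgRNA 15 (log2 2.94, SE 0.03, adjusted p = 7.55e-79). The neutral amino acid transporter Slc1a4 stood at 9.08 ± 0.547, 59.8 ± 1.98 and 58.2 ± 0.533 CPM in the same order of groups (log2 2.67, SE 0.06, adjusted p = 1.68e-57). The glutathione-degrading enzyme Chac1 (10.4 ± 0.261, 61.1 ± 0.744 and 65.1 ± 2.44 CPM, log2 2.57) and the factor Atf5 (63.3 ± 0.831, 338 ± 4.72 and 344 ± 6.95 CPM, log2 2.39) followed. Csf3r (log2 2.12), the cysteine-forming enzyme Cth (log2 2.10), the cystine transporter Slc7a11 (log2 2.01) and Asns (log2 1.95) completed the 8 largest, each with safe libraries below all 6 guide libraries. In the stress list 21 of 22 tested members were called (95.5%), 20 higher and 1 lower in the guide libraries, with a median log2 of 1.62. Over all genes tested 68% were called, 34.7% higher and 33.3% lower in the guide libraries. With a minimum mean of 5 CPM, 7714 of 9781 tested genes were called.

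Of the 8 listed genes with the largest fall in the guide libraries, 4 are chemokines. That count too reflects lists chosen with earlier results of these data known. The prostaglandin E2 receptor Ptger4 had safe values of 48.6, 50.1 and 47.2 CPM, against 13.3, 13.2 and 12.4 CPM with sgRNA 11 and 8.72, 12.2 and 9.08 CPM with sgRNA 15 (log2 -2.12, SE 0.06, adjusted p = 4.98e-49). Lpl stood at 768 ± 18.1, 210.3 ± 7.73 and 235 ± 5.04 CPM (log2 -1.82, SE 0.02, adjusted p = 4.08e-78) and Ccl2, a chemokine for monocytes, at 149 ± 6.95, 32.3 ± 2.02 and 59.1 ± 0.794 CPM (log2 -1.80, SE 0.03, adjusted p = 1.35e-61). Ccl12 (log2 -1.63), the factor Batf3 (log2 -1.58), Ccl4 (log2 -1.57), Ccl3 (log2 -1.48) and Slc16a1 (log2 -1.46) completed the 8, with no overlap between safe and guide libraries. The guides were unlike for Ccl4 (22.6 ± 2.04 CPM with sgRNA 11 and 56.2 ± 1.84 CPM with sgRNA 15, against 103 ± 4.23 CPM in the safe libraries) and Ccl3 (28.9 ± 0.882, 66.1 ± 2.14 and 119 ± 3.26 CPM in that order), and this difference between guides was not tested. In the list of cytokines and chemokines 18 of 19 tested members were called (94.7%), 14 of them higher in the safe libraries (median log2 -0.63). Of the lysosomal genes 87 of 95 tested were called (91.6%), 75 of them higher in the guide libraries (median log2 0.37). Of the metabolic genes 101 of 120 were called (84.2%), 47 higher and 54 lower (median log2 -0.05). These shares stand against 68% of all genes tested, with 34.7% higher and 33.3% lower in the guide libraries. They also stand against 7714 of 9781 genes called with a minimum mean of 5 CPM, and 82.8% of all tested listed genes. Members of these lists too were chosen with earlier results of these data known.

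**Figure D5:**
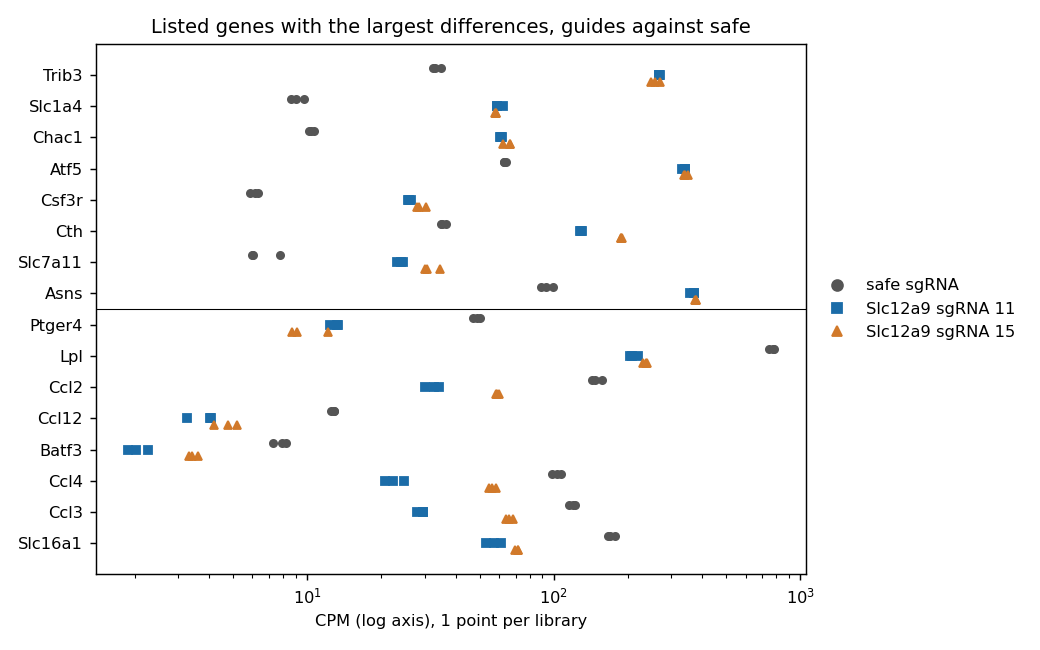
CPM on a log axis of the 8 listed genes with the largest rise (above the line) and the 8 with the largest fall (below it) in guide libraries among those called, with 1 mark for each of the 9 libraries. For each of the 16 genes the 3 safe libraries lie apart from all 6 guide libraries.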

How the data were processed

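Polyadenylated RNA of 9 J774A.1 libraries was depleted of rRNA and sequenced, per the labels' protocols. The authors deposited 1 table of read counts per gene for each library, made with STAR and HTSeq on mm10, per the submitters' processing notes. Neither the tool versions nor the annotation release, the strandedness or the overlap mode is given in the sources used here. Rows for unassigned reads were left out. CPM used the sum of all gene counts. TPM used the summed exon length of GENCODE M21 models (Python 3.11.15, pandas 2.3.3), which matched all but 260 of 55487 gene rows (64.4 CPM). Shared 50-base windows and exon overlaps came from the same models, and promoters from RefSeq on GRCm38.p6, with the first row taken per gene. Library totals and the limit of a count of 0 stand in the report.

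The lists hold 789 genes in 98 lists. Some of their members are not reported here. Members and lists were chosen with earlier results of these data known. Genes named were the 5 given markers, the 15 highest in CPM and in TPM, the highest member and up to 7 next of each list described plus members below 1 CPM, the 8 most variable genes above 20 CPM, and the 8 largest rises and falls among called listed genes with a mean of at least 5 CPM. Guide and safe libraries were compared with edgeR 4.0.16 in R 4.3.3 (TMM, filterByExpr, robust quasi-likelihood fit, 2-sided, Benjamini-Hochberg adjustment over all tested genes, threshold 0.05), after the same code had been tested on simulated data. DESeq2 1.42.0, limma-voom 3.58.1, other scalings, filters, lengths and left-out libraries were tried. The labels name no batch shared by same-numbered libraries. The correlations of their deviations from group means ran from 0.0020 to 0.123 over 11076 genes. Libraries of unlike number were not compared in this way, so these values cannot tell whether the numbers pair libraries.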

Additional observations from a re-analysis of the deposited data

How the results depend on the processing

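The number of expressed genes, 11360, ranged from 9504 with a minimum of 5 CPM to 12411 with at least 10 counts in each library, and from 11445 to 11456 with 1 safe library left out. The 100 most abundant genes held 18.3% of the counts, 30.8% of TPM with Gm23935 included, 17.5% of counts without mitochondrially encoded genes and 17.8% without CT010467.1, and 18.1 to 18.3% with 1 safe library left out. The leading member stayed the same in 62 of 71 families with the length of the longest transcript and in 70 of 71 without safe replicate 2. With a minimum mean of 100 CPM, a choice made after seeing the data, 3 genes in place of 6 spread by more than 1.5-fold. Between guide and safe libraries 7714 genes (minimum mean of 5 CPM) to 9236 genes were called over the alternatives, against 9147, with 8565 by DESeq2, 9136 by limma-voom and 8576 to 9156 with 1 library left out. The fit with a replicate block called 9236 genes. The main fit did not take the numbers to pair the libraries, and whether they do was not settled by the same-number correlations. Of the genes named in that comparison, Spi1, which did not pass, changed sign in 7 settings, to -0.0043 with DESeq2, -0.0043 with relative log expression size factors, -0.13 with trends in GC content and gene length removed, -0.014 without sgRNA 11 replicate 3, -0.020 without sgRNA 15 replicate 3, -0.026 without safe replicate 1 and -0.00017 without safe replicate 2. Its log2 difference ran from -0.026 to 0.015 with 1 library left out. Cd68 no longer passed with the GC and length trends removed (log2 0.07). The cause was not tested. At these depths a gene below about 0.117 to 0.159 CPM may have no counted read in a library.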

Other observations

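Complement genes, which macrophages secrete as part of innate defence, were expressed in 6 of 10 cases. The C1q chains C1qb (1706 ± 79.1 TPM) and C1qa (1676 ± 58.2 TPM) overlapped, and the third chain C1qc stood at 673 ± 23.97 TPM. Properdin, Cfp, which stabilises the alternative pathway, stood at 526 ± 23.04 TPM and the central component C3 at 30.6 ± 0.631 TPM. Factor B, Cfb, the alternative pathway protease, had no count but is uncertain.

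Of the cell cycle inhibitors 7 of 9 were expressed, with Trp53 at 275 ± 16.5 TPM, Cdkn1a at 108 ± 1.98 TPM, Cdkn2d at 87.3 ± 1.44 TPM and Cdkn2c at 54.03 ± 4.91 TPM. Cdkn2a and Cdkn2b, neighbouring tumour suppressor genes, had no count in any of the 3 libraries, which allows up to 0.117 to 0.159 CPM of counted reads per library.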
